A study of Xenopus laevis with 8 samples.

Results

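The Hox and cdx genes are homeobox genes that specify position along the head to tail axis, and they were examined here in the anterior endoderm of Xenopus laevis. A gene was taken as a member when its platform symbol, without the homeolog suffix, was hox plus a cluster letter and a number, or cdx1, cdx2 or cdx4. Of 11303 named genes, 28 were members, 25 Hox genes and 3 cdx genes, each represented by the probe set with the highest mean over the 8 arrays. The suffixes .L and .S mark the paired copies (homeologs) that most genes have in this species, and each copy counted as a gene of its own. By paralogue number, the position a Hox gene holds in its cluster, 6 genes fell into the numbers 1 to 4 (the lowest measured was 2), 9 into 5 to 8 and 10 into 9 to 13.

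All embryos in both groups carried injected mRNA for Ngn3-GR, given at the 8-cell stage into 2 dorsal vegetal blastomeres. Ngn3-GR joins Neurogenin 3, a proneural transcription factor, to a glucocorticoid receptor domain that dexamethasone activates. The DEX group (4 arrays) had 10 µM dexamethasone for 4 hours from Nieuwkoop and Faber (NF) stage 12, and the no_DEX group (4 arrays) had none. The anterior endoderm was dissected at NF stage 15, and arrays are called by group and replicate number, with a pair being the DEX and no_DEX arrays of the same number. The labels give no source for the replicate numbers, such as a clutch. Embryos that had dexamethasone and no fusion were not analysed here, so effects of the fusion and of dexamethasone itself cannot be told apart.

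Hox genes lie in clusters, and their order in a cluster matches the order of their domains along the body: low numbers act in the hindbrain and pharynx, middle numbers in the trunk, and high numbers in the posterior trunk and tail. Each encodes a DNA-binding homeodomain protein that acts with cofactors of the Pbx and Meis families. The cdx genes are relatives of the fly gene caudal. They are active in posterior tissue under Wnt and FGF signals and are known to activate trunk and posterior Hox genes. Retinoic acid is a further input to the low-numbered Hox genes.

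The signals are log2 values, in which a difference of 1 is a doubling. The highest of 17 control probe sets for tags absent from the sample, 4.40, served as the limit of background. Means of 26 of the 28 genes exceeded it, and hoxc12.L (3.56) and hoxa13.S (3.93) did not. Signals of different probe sets are not set against each other, since probes differ in how strongly they bind. The dissected tissue carried endoderm markers, with means of 9.98 for sox17a.L, 8.03 for sox17b.1.L and 8.85 for foxa2.L. It also carried markers of neighbouring tissues: all 14 probe sets taken as defining markers of endoderm, neural plate, somite and neural crest lay above background. Which cells gave the Hox and cdx signal was not tested, and fewer cells of a type and less RNA per cell cannot be told apart in such samples.

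No Hox or cdx gene changed with dexamethasone by the test used. Of the 28, 0 passed at an adjusted p under 0.05 in limma without a block for the replicate number, where 0.00615% of all 32539 probe sets were called (2), and 0 passed with the block, where 0.553% were called (180). An unadjusted p under 0.05 was found for 1 gene without the block (cdx1.S), against 4.238% of all probe sets, and for 3 with it (the 3 cdx genes), against 12.51%. Neither count exceeds that share of 28 genes. The Hox changes were small. They ran from −0.29 to 0.11 on the log2 scale with a median of −0.04, against a median of 0.002 over all probe sets. With the block, no 95% confidence interval for a Hox gene extended below −0.77 or above 0.44. Without the block the outermost limits were −0.96 and 0.57.

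**Figure D1:**
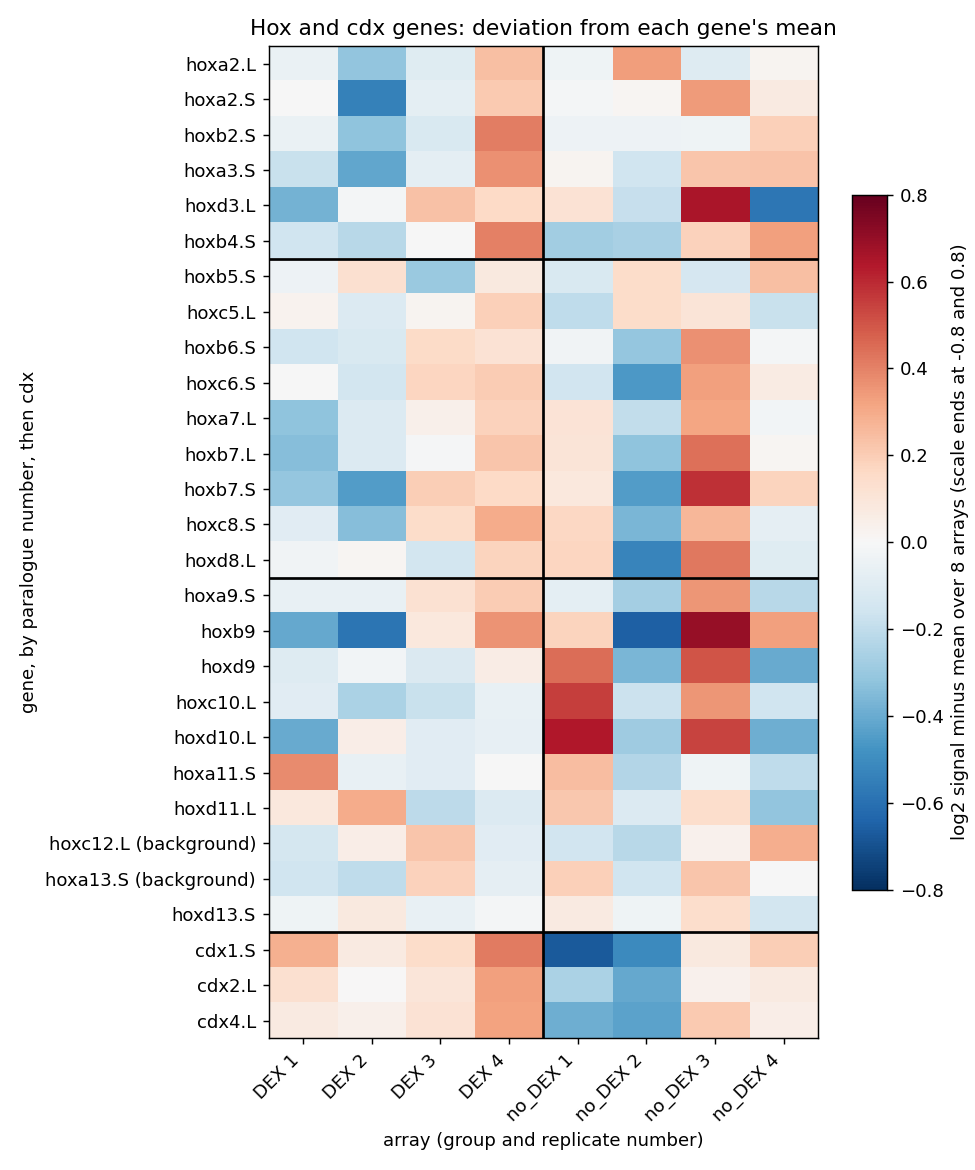
Colour shows the log2 signal of each gene (rows, by paralogue number, with cdx last) on each array (columns, 4 DEX then 4 no_DEX) minus that gene's mean over the 8 arrays. The cdx rows are lowest on no_DEX 1 and no_DEX 2, while many Hox rows of the numbers 5 to 13 are highest on no_DEX 3.

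The cdx genes lay higher with dexamethasone, without passing. The cdx1.S signal was 11.31, 11.09, 11.17 and 11.44 on DEX 1 to 4, and 10.35, 10.51, 11.10 and 11.22 on no_DEX 1 to 4. Its change was 0.46 on the log2 scale (adjusted p = 1.00, and 0.228 with the block), with a group mean of 11.25 ± 0.15 against 10.80 ± 0.43 (SD, 4 arrays each). The difference came mostly from pairs 1 and 2, at 0.96 and 0.58, against 0.07 and 0.22 in pairs 3 and 4, and the groups overlapped.

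For cdx2.L the DEX arrays 1 to 4 gave 10.60, 10.47, 10.57 and 10.80 and the no_DEX arrays 10.22, 10.06, 10.51 and 10.54. That is a change of 0.28 (adjusted p = 1.00, and 0.236 with the block), and again no_DEX 1 and 2 were the lowest arrays. In cdx4.L the DEX values were 11.17, 11.14, 11.22 and 11.42 and the no_DEX values 10.71, 10.67, 11.31 and 11.15. The change was also 0.28 (adjusted p = 1.00, and 0.344 with the block), but pair 3 went the other way at −0.09. Thus 2 of the 3 genes, cdx1.S and cdx2.L, were higher in 4 of 4 pairs, as were 10.9% of all probe sets. With the block the 95% intervals were 0.13 to 0.78 for cdx1.S, 0.08 to 0.48 for cdx2.L and 0.03 to 0.53 for cdx4.L. Without it they were 0.004 to 0.91, −0.02 to 0.58 and −0.08 to 0.64, so those of cdx2.L and cdx4.L included no change. These intervals are not adjusted for the number of genes tested.

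**Figure D2:**
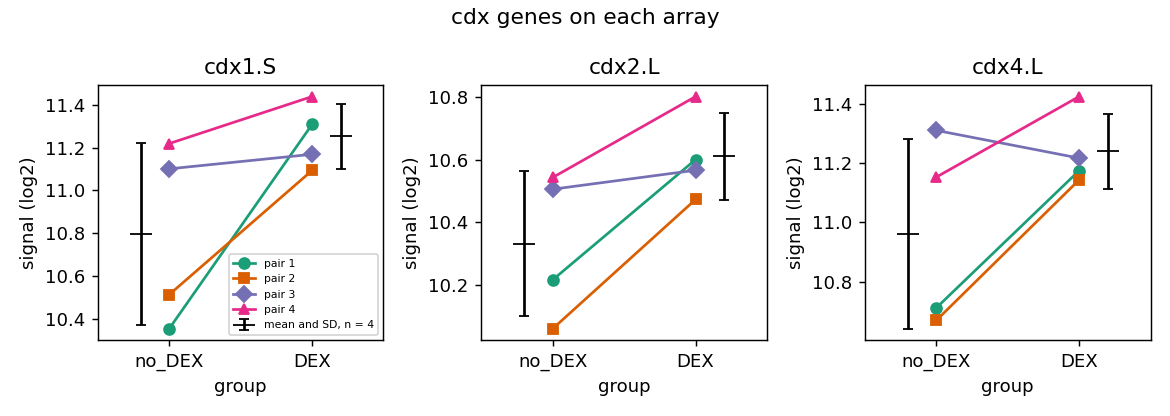
Log2 signal of the 3 cdx genes on the no_DEX and DEX arrays, with a line for each pair and black bars for the group mean and SD over 4 arrays. The lines of pairs 1 and 2 rise from the lowest no_DEX values, and the lines of pairs 3 and 4 are flatter.

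Further probe sets of the same genes were also higher on average, none passing. Those of cdx1.S stood at 0.25 and 0.42, and that of cdx4.L at 0.32. In limma their unadjusted p was 0.168, 0.0214 and 0.0413 without the block, and 0.0719, 0.0200 and 0.0232 with it. The cdx1.S set at 0.25 was lower in pair 4, at −0.04, and so higher in 3 of 4 pairs. The cdx4.L set was lower in pair 3, at −0.06. The cdx1.S set at 0.42 was higher in 4 of 4 pairs, and its lowest DEX array (8.01) lay just above its highest no_DEX array (7.98). In each of the 3, pair 1 gave the widest change, at 0.68, 1.01 and 0.56.

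Among the low-numbered Hox genes, which pattern hindbrain and pharyngeal arches, 5 of 6 had a lower mean with dexamethasone and 1, hoxb4.S, a higher mean. Of all probe sets 50.8% had a higher mean, a share to be set beside the counts of the later groups as well. The group median was −0.08 and ran from −0.03 without pair 2 to −0.24 without pair 4. With only the brighter copy of hoxa2 kept, it was −0.04. The selector gene of the second arch, hoxa2, was measured in both copies. On DEX 1 to 4 hoxa2.S read 6.70, 6.16, 6.63 and 6.92, and on no_DEX 1 to 4 it read 6.69, 6.72, 7.05 and 6.78. Its change was −0.21 (adjusted p = 1.00, and 0.572 with the block), made by pairs 2 and 3 at −0.55 and −0.42. The copy hoxa2.L read 5.94, 5.68, 5.90 and 6.24 with dexamethasone and 5.96, 6.33, 5.89 and 6.02 without, a change of −0.11. Both copies were lowest on DEX 2, and pair 2 gave their widest difference, −0.65 for hoxa2.L.

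The third-arch gene hoxa3.S read 8.06, 7.82, 8.16 and 8.61 with dexamethasone and 8.26, 8.08, 8.46 and 8.46 without. It was lower in 3 pairs and higher in pair 4 by 0.14, for a mean change of −0.15 (adjusted p = 1.00, and 0.585 with the block). The hindbrain gene hoxb2.S differed by −0.04. In hoxb4.S the DEX arrays read 9.12, 9.06, 9.28 and 9.68 and the no_DEX arrays 9.002, 9.02, 9.47 and 9.61, a difference of 0.009. The mean difference of hoxd3.L was −0.002, but its pairs differed widely and in opposite directions. It read 5.10, 5.46, 5.71 and 5.64 with dexamethasone and 5.60, 5.30, 6.13 and 4.90 without.

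In the trunk group, numbers 5 to 8, 4 of 9 genes had a higher mean with dexamethasone and 5 a lower one, with a median of −0.006. The widest change was that of hoxb7.S, −0.20 (adjusted p = 1.00, and 0.465 with the block), from 6.75, 6.62, 7.26 and 7.22 on DEX 1 to 4 and 7.15, 6.61, 7.64 and 7.24 on no_DEX 1 to 4. Its probe set has a suffix for probes that also match other transcripts. The copy hoxb7.L read 7.61, 7.84, 7.94 and 8.18 with dexamethasone and 8.06, 7.63, 8.39 and 7.97 without, a change of −0.12. Both copies were lower with dexamethasone in pairs 1 and 3, by 0.40 and 0.39 for hoxb7.S and by 0.45 in each for hoxb7.L. In pairs 2 and 4 hoxb7.L was higher by 0.21 each, while hoxb7.S differed by 0.02 or less.

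The gene hoxc6.S, which marks the anterior trunk in Xenopus, read 9.45, 9.30, 9.62 and 9.65 with dexamethasone and 9.30, 8.99, 9.78 and 9.52 without, a change of 0.11. The gene hoxc8.S, which acts at the thoracic level in mouse, read 7.88, 7.63, 8.11 and 8.26 with dexamethasone and 8.13, 7.60, 8.23 and 7.89 without, a difference of 0.005. The remaining genes of this group stood at −0.10 (hoxa7.L), −0.07 (hoxb5.S), 0.06 (hoxc5.L), 0.01 (hoxd8.L) and −0.006 (hoxb6.S). All 9 genes were lower with dexamethasone in pair 3, and 7 of 9 were higher in pair 4. Over all 32539 probe sets, 15463 were lower in pair 3 and 15489 higher in pair 4.

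Among the posterior genes, numbers 9 to 13, 6 of 10 had a lower mean with dexamethasone and 4 a higher one, with a median of −0.05. The lowest value was that of hoxc10.L, a gene of the lumbar level in mouse, which read 7.62, 7.46, 7.53 and 7.65 on DEX 1 to 4 and 8.26, 7.54, 8.06 and 7.55 on no_DEX 1 to 4. Its change was −0.29 (adjusted p = 1.00, and 0.426 with the block). The DEX arrays and no_DEX 2 and 4 lay close together, and no_DEX 1 and 3 lay above them.

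The posterior neural plate gene hoxb9 read 8.61, 8.44, 9.11 and 9.38 with dexamethasone and 9.21, 8.37, 9.72 and 9.35 without, a change of −0.28 (adjusted p = 1.00, and 0.465 with the block). Pairs 1 and 3 gave −0.59 and −0.62, and pairs 2 and 4 gave 0.07 and 0.03. A further hoxb9 probe set stood at −0.30, with −0.60, −0.18, −0.45 and 0.03 in pairs 1 to 4. In limma with the block its unadjusted p was 0.0275 and its adjusted p 0.316. The lumbar-level gene hoxd10.L read 5.36, 5.82, 5.68 and 5.697 with dexamethasone and 6.41, 5.48, 6.30 and 5.38 without, a change of −0.25 (adjusted p = 1.00, and 0.723 with the block). Here too no_DEX 1 and 3 were the highest arrays. The gene hoxa11.S read 6.49, 6.05, 6.02 and 6.10 with dexamethasone and 6.35, 5.87, 6.07 and 5.90 without, a difference of 0.11, with array 1 the highest in both groups. Of the other posterior genes, hoxa9.S stood at 0.11, hoxd11.L at 0.03, hoxd9 at −0.09 and hoxd13.S at −0.02. The single Hox gene lower in 4 of 4 pairs was hoxa13.S (−0.12), which lay within the range of the background controls, and 10.3% of all probe sets were lower in 4 of 4 pairs.

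**Figure D3:**
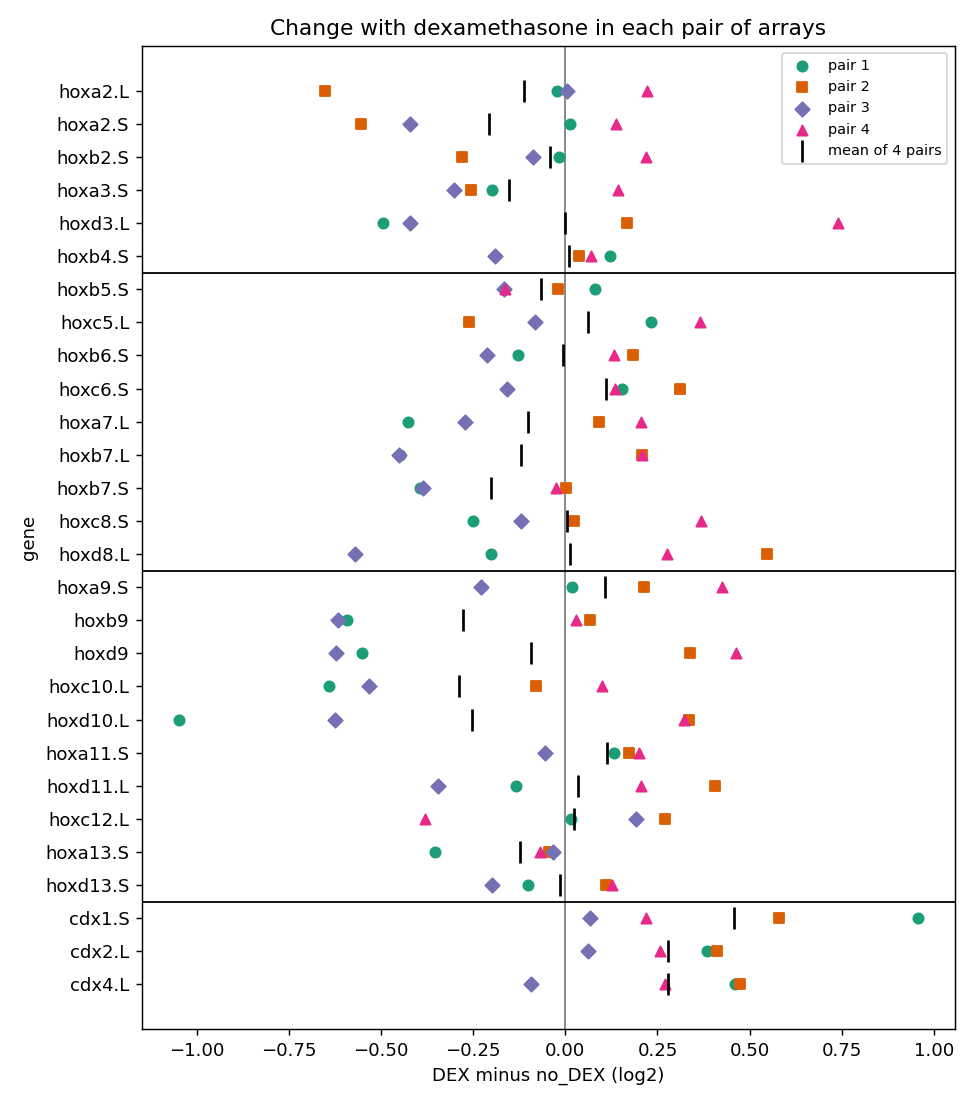
DEX minus no_DEX (log2) in each pair of arrays for the 28 genes, with a black tick at the mean of the 4 pairs and lines between the paralogue groups. In the numbers 9 to 13 the points of pairs 1 and 3 lie mostly left of 0 and those of pairs 2 and 4 mostly right of it.

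The Hox genes changed in opposite directions in different pairs, a pattern noticed after the values were seen. The median change of the numbers 9 to 13 was −0.24, 0.19, −0.29 and 0.16 in pairs 1 to 4. For the numbers 5 to 8 it was −0.20, 0.09, −0.21 and 0.21. The numbers 1 to 4 differed from these in pair 2, with medians of −0.02, −0.27, −0.25 and 0.18. In pair 3, 23 of 25 Hox genes were lower with dexamethasone, and in pair 4, 21 of 25 were higher. Of all 32539 probe sets, 15463 were lower in pair 3 and 15489 higher in pair 4. Each pair sets 1 array against 1 other.

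Lower in pairs 1 and 3 and higher in pairs 2 and 4 was the order for 11 of the 25 Hox genes: 1 of 6 in the numbers 1 to 4, 5 of 9 in 5 to 8 and 5 of 10 in 9 to 13. Of all probe sets above background, 4.73% showed it. Genes of a cluster are not independent of each other, and all were read from the same arrays, so the count describes these 8 arrays. All 6 hoxd genes showed this order, against 3 of 7 hoxb, 1 of 7 hoxa and 1 of 5 hoxc genes. The split by cluster letter was made after the values were seen. In the gene table of assembly Xenopus_laevis_v10.1, hoxd3.L, hoxd8.L, hoxd10.L and hoxd11.L lie in that order on the same chromosome. Of the remaining hoxd genes, hoxd13.S is an .S copy and hoxd9 did not match that table.

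The hoxd differences lay mainly in the untreated arrays. For hoxd9, singled out after its values were seen, the no_DEX arrays read 6.88, 6.07, 6.94 and 6.03 and the DEX arrays 6.33, 6.41, 6.32 and 6.49. All 4 DEX values thus fell between the high and the low no_DEX values, with an SD of 0.08 against 0.50. The hoxd8.L values were 6.13, 5.42, 6.38 and 5.86 without dexamethasone and 5.93, 5.97, 5.81 and 6.13 with it. A gene of limb and posterior axis in mouse, hoxd11.L, read 6.94, 6.62, 6.86 and 6.41 without and 6.81, 7.02, 6.52 and 6.62 with dexamethasone, a case where the DEX arrays were spread as widely (SD 0.22, against 0.24). The range of hoxd13.S was narrow in both groups, 5.12 to 5.41 without and 5.21 to 5.35 with dexamethasone.

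**Figure D4:**
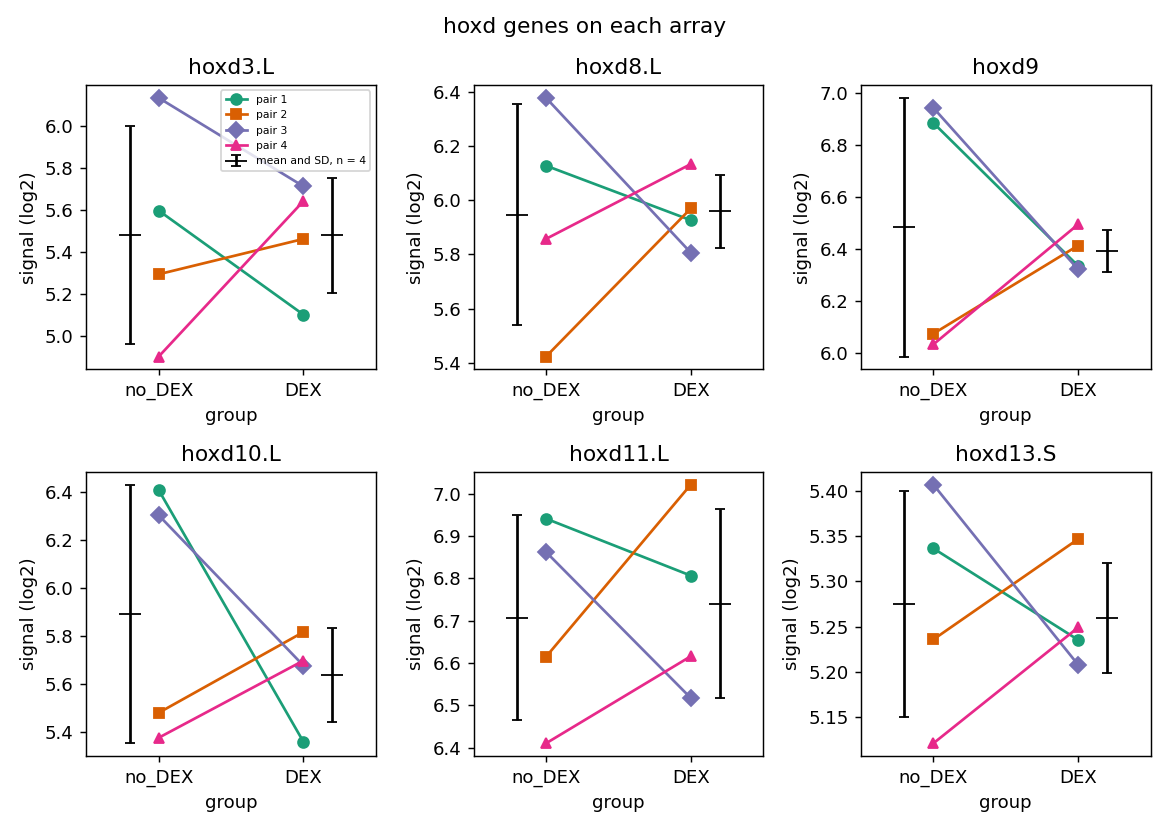
Log2 signal of the 6 hoxd genes on the no_DEX and DEX arrays, with a line for each pair, black bars for the group mean and SD over 4 arrays, and a separate vertical scale in each panel. In every panel the lines of pairs 1 and 3 fall and those of pairs 2 and 4 rise.

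Spread among the untreated arrays was the wider in most trunk and posterior genes. The SD over the 4 no_DEX arrays exceeded that over the 4 DEX arrays in 10 of 10 genes of the numbers 9 to 13. It did so in 8 of 9 of 5 to 8, in 2 of 6 of 1 to 4 and in 3 of 3 cdx genes. The 10 include hoxc12.L and hoxa13.S, whose means did not exceed background. SDs were nearly equal (no_DEX, then DEX) in hoxa11.S (0.221, 0.218), hoxa13.S (0.178, 0.175), hoxa7.L (0.216, 0.215) and hoxc8.S (0.281, 0.279). The share with the wider spread in no_DEX was 60.8% over all probe sets and 65.0% over those above background. Some lists of other tissues, read below, had high shares too, so the trait was not particular to Hox genes. These were muscle and somite (88.2%), notochord (87.5%), lateral plate, kidney and heart (86.7%) and endoderm genes (84.0%). Lower shares were found in others, such as anterior (40.6%), neural (53.3%) and neural crest genes (58.3%). The median SD was 0.26 in no_DEX and 0.17 in DEX for the numbers 9 to 13, 0.28 and 0.19 for 5 to 8, and 0.19 and 0.29 for 1 to 4. Over all probe sets it was 0.20 and 0.17, and over those above background 0.23 and 0.18. These are descriptions of 4 arrays a group, and the differences in spread were not tested.

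Replicate numbers separated few of these genes. A limma F test of the replicate number, with the group in the model, called 3 of the 28 at an adjusted p under 0.05 (10.7%). Of all probe sets 20.7% were called, and of those above background 26.0%. The 3 were hoxb9 (0.0211), hoxb7.S (0.0168) and hoxb4.S (0.0220). All 3 are hoxb genes, 1 from each paralogue group. A further hoxb7.S probe set, without the suffix for probes that match other transcripts, was not called in this F test (adjusted p = 0.116). Of the further hoxb9 probe sets, the brighter was not called (0.0563), and the one at background was (0.0471). In hoxb9 the means of the pairs were 8.91, 8.41, 9.42 and 9.37 for numbers 1 to 4, a range of 1.01. In hoxb7.S they were 6.95, 6.62, 7.45 and 7.23, and in hoxb4.S 9.06, 9.04, 9.37 and 9.65. Number 2 was thus lowest in all 3, while the highest was number 3 in hoxb9 and hoxb7.S and number 4 in hoxb4.S. Without the arrays of number 2 none of the 3 passed (adjusted p = 0.168 for hoxb9, 0.120 for hoxb7.S and 0.0648 for hoxb4.S). The call of hoxb7.S was also lost without number 3 (0.0728) and that of hoxb4.S without number 4 (0.157).

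Ranges of the pair means were also read for genes that missed the threshold. The range was 0.65 for hoxd3.L (adjusted p = 0.256), 0.56 for hoxc8.S (0.0965) and 0.46 for hoxa11.S (0.0573), where number 1 was highest at 6.42 and the others lay between 5.96 and 6.04. The range was 0.53 for cdx1.S (0.185) and 0.41 for cdx2.L (0.140), both highest in number 4 at 11.33 and 10.67. The median range was 0.53 for the numbers 1 to 4, 0.43 for 5 to 8 and 0.40 for 9 to 13. It was 0.35 over all probe sets and 0.40 over those above background. In the numbers 9 to 13 hoxd10.L had pair means of 5.54 to 5.99, while its no_DEX arrays spanned 5.38 to 6.41.

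Partners and inputs of the Hox genes were read from lists. Of 11 measured genes of cofactors (such as the Pbx and Meis genes) and other partners (such as geminin), 0 passed in either fit. In each fit 3 had an unadjusted p under 0.05. Here, and in the lists that follow, such counts are to be read against the 4.238% and 12.51% of all probe sets. Geminin, gmnn.L, which binds Hox proteins, stood at 0.43, meis1.S at −0.36 and meis2.L at −0.30, each in the same direction in 4 of 4 pairs (adjusted p = 0.161, 0.109 and 0.230 with the block). The other geminin copy, gmnn.S, stood at 0.11 and was lower in pair 3. Of 23 retinoic acid genes 0 passed, with 1 at an unadjusted p under 0.05 and 4 with the block. The widest was the retinoic acid-degrading enzyme gene cyp26c1.S at −0.95, from 9.46 ± 0.41 to 8.51 ± 0.36, lower in 4 of 4 pairs (adjusted p = 0.665, and 0.0967 with the block). Further members of that list were rdh11.S at −0.41 and aldh1a2.L, encoding the enzyme that makes retinoic acid in the trunk, at −0.27.

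Of 10 hindbrain regulators 0 passed, with 1 at an unadjusted p under 0.05 in each fit. In this list irx3.L stood at −0.66 (adjusted p = 0.0860 with the block), znf703.S at 0.28 and irx1.L at −0.20. Polycomb and Trithorax genes, whose products hold Hox clusters silent or active, numbered 24 and 0 passed (unadjusted, 0 without and 1 with the block). The widest changes above background were −0.20 for cbx2.L, 0.17 for phc1.S and 0.15 for rnf2.L.

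Genes of posterior Wnt and FGF signalling and of the tail bud lay higher as a list without any of the 39 passing (unadjusted, 5 without and 12 with the block, against the same shares). The list holds the 3 cdx genes. Of its genes 33 had a higher mean with dexamethasone and 6 a lower one, where 50.8% of all probe sets were higher, and the list median was 0.23. The median by pair was 0.38, 0.19, −0.02 and 0.22, so pair 3 did not share it. The widest were the somitogenesis gene mespb.L at 0.66, and the ventral homeobox genes ventx1.2.S at 0.58 and ventx1.1.S at 0.51, all higher in 4 of 4 pairs (adjusted p = 0.109, 0.221 and 0.284 with the block). The other copy of the last, ventx1.1.L, stood at 0.06.

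Over all probe sets 0.553% were called with the block. Of 32 anterior genes 2 fell with the block, and 0 passed without it. They were the eye-field gene six6.L (−1.13, adjusted p = 0.0389) and nkx2-1.L of foregut and forebrain (−0.94, 0.0184). In limma an unadjusted p under 0.05 was found for 8 of the 32 without and 18 with the block, against 4.238% and 12.51% of all probe sets. The list also held genes that lay the other way: 10 had a higher mean with dexamethasone, 6 of them in 4 of 4 pairs, and 22 a lower one, 10 of them in 4 of 4. Of all probe sets 10.9% were higher and 10.3% lower in 4 of 4 pairs. The gene cer1.S, which is also in the endoderm list read below, was named after its values were seen. Its change, at 1.05, was the second widest of the anterior list (adjusted p = 0.0959 with the block). The list median was −0.14, with −0.07, −0.13, −0.08 and −0.38 in pairs 1 to 4. When a pair was left out of the fit with the block, six6.L missed the threshold without pair 1 (0.122), 2 (0.182) or 3 (0.0575). The call of nkx2-1.L was lost without pair 2 (0.0952) or 3 (0.0817).

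**Figure D5:**
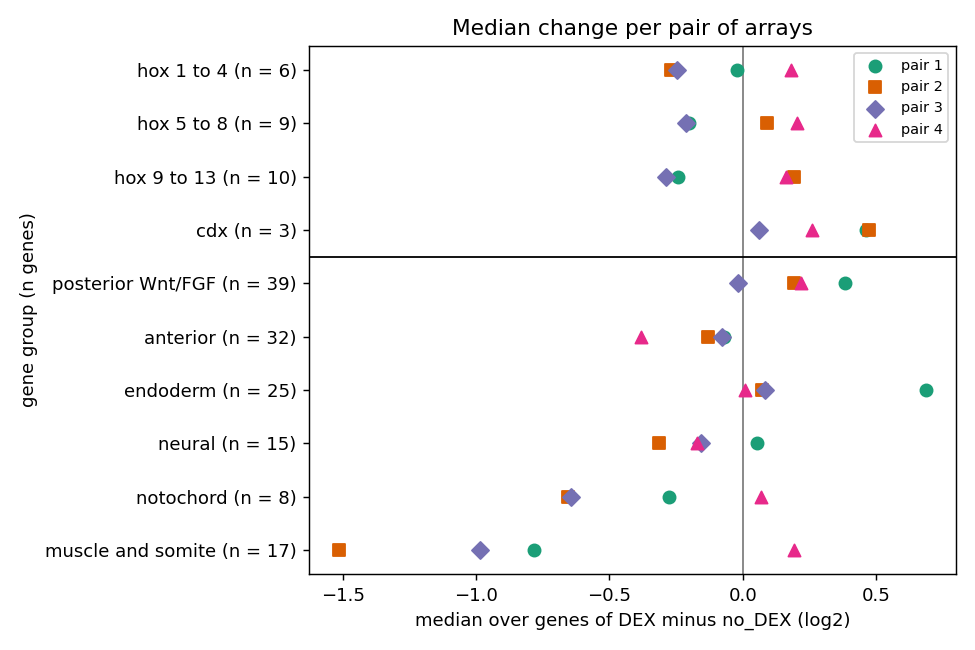
Median over the genes of each group of DEX minus no_DEX (log2), with a point for each pair; above the line are the Hox paralogue groups and cdx, below it lists of other genes. The Hox points of pairs 1 and 3 lie below 0 and those of pair 4 above it. Muscle and somite genes are lowest in pair 2, as are the Hox numbers 1 to 4.

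Lists of markers of neighbouring tissues had medians away from 0 in some pairs. Of the 17 muscle and somite genes, 0 passed in either fit. Muscle and somite genes (15 of 17 above background) had a median change of −0.78, −1.52, −0.98 and 0.19 in pairs 1 to 4, and the mean level of the list ranged from 6.40 to 7.30 in DEX and from 6.08 to 8.11 in no_DEX. In pair 2 they were thus lower, where the medians of the Hox numbers 5 to 8 and 9 to 13 were higher. In pairs 1, 3 and 4 those Hox medians had the same sign as the muscle median. The Hox numbers 1 to 4 had the same sign in every pair (−0.02, −0.27, −0.25 and 0.18). Notochord genes (8 of 8 above background) stood at −0.28, −0.66, −0.64 and 0.07, with mean levels of 7.19 to 7.56 in DEX and 7.32 to 8.07 in no_DEX. For neural genes (12 of 15) the medians were 0.05, −0.32, −0.16 and −0.17, with mean levels of 7.57 to 8.08 and 7.65 to 8.10. Neural crest genes (12 of 12) stood at 0.23, −0.42, −0.16 and −0.12 and lateral plate, kidney and heart genes (12 of 15) at 0.24, −0.33, −0.14 and −0.14. In epidermis (10 of 10) and blood genes (7 of 10) no pair median lay further from 0 than 0.09. In limma with the block, an unadjusted p under 0.05 was found for 12.51% of all probe sets. It was found for 12 of 17 muscle and somite, 6 of 8 notochord, 5 of 15 neural and 3 of 12 neural crest genes. The counts were 2 of 15 in lateral plate, kidney and heart, 4 of 10 in blood and 0 of 10 in epidermis genes. At an adjusted p under 0.05, 0.553% of all probe sets were called with the block. With it, 5 genes of these marker lists were called, and 0 without it. They were hba3.L (1.59, adjusted p = 0.0171) and tal1.S (−1.06, 0.0169) of the blood list, elavl3.L of the neural list (0.88, 0.0350), nkx2-5.S of the heart list (−0.59, 0.0247) and shh.L of the notochord list (−0.94, 0.0156). All 5 missed the threshold without pair 2 or without pair 3, and elavl3.L and nkx2-5.S also without pair 1 or 4.

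Endoderm genes (22 of 25 above background) had their highest median in pair 1, with 0.69, 0.07, 0.08 and 0.01 in pairs 1 to 4. Of the 25, 21 had a higher mean with dexamethasone, where 50.8% of all probe sets did. In 4 of 4 pairs 8 were higher and 2 lower, against 10.9% and 10.3%. In either fit 0 passed (unadjusted, 4 without and 10 with the block, against 4.238% and 12.51%). The mean level of the endoderm list was lowest on no_DEX 1 (7.73), where cdx1.S was lowest as well. It lay between 8.36 and 8.72 on the other arrays. The lowest array of cdx2.L and cdx4.L was no_DEX 2, where the endoderm mean level was 8.49. Without pair 1 the change of cdx1.S was 0.29, that of cdx2.L 0.24 and that of cdx4.L 0.22. The part of these tissues in the Hox and cdx values was not tested.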

How the data were processed

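RNA from 8 samples, 4 DEX and 4 no_DEX, had been hybridised to Affymetrix arrays. The deposited table holds log2 values made by the authors with RMA, per the submitters' processing notes (version not given in the sources used here). RMA corrects background, normalizes by quantiles and summarises each probe set, and it shrinks differences between weak signals. Values ran from 2.02 to 14.5 and array medians from 6.02 to 6.12. No further scaling was applied.

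The table has 32635 probe sets, and 96 Affymetrix controls were left out. The platform annotation gave 1 symbol for 15495, several for 279 (not named) and none for 16765. The 28 members have 44 probe sets, and 1 more carries several symbols. Gene identifiers of 26 members matched an NCBI table of genes (assembly Xenopus_laevis_v10.1) with the same symbol, and 2, hoxb9 and hoxd9, did not match. Sequences of probes, promoters and proteins were not used here.

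All probe sets were fitted with limma 3.58.1 in R 4.3.3 (lmFit, eBayes, two-sided, Benjamini-Hochberg over 32539), without a block as the main fit and with the replicate number as a block. Arrays of the same number were treated as pairs because deviations from the group means correlated at 0.63 to 0.78 between arrays of the same number, above the limit of 0.1, and at most at 0.20 otherwise. The fits were tested on simulated data. Intervals are limma's 95% intervals, and the number of arrays limits every value. The labels call the replicates biological and do not say whether they came from separate clutches.

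The members and lists were chosen with earlier results of these data known. Full values are given for members called in either fit (0), for the 3 per paralogue group with the largest change above background, and for the 2 per group with the widest range of pair means. From each list of partners and inputs, the called genes are named or, if there were 0, the 3 with the largest change above background. Alternatives were array medians set to 0, dim probe sets left out, a trended robust prior, other probe sets, joined homeologs and leaving out arrays or pairs.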

Additional observations from a re-analysis of the deposited data

Results flagged for a closer look

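The hoxb2.S signal on no_DEX 4 was 7.47, far from the other no_DEX arrays, which lay between 7.24 and 7.25. It was the only such case among 56 groups of 4 values (28 genes in 2 groups). Chance alone gives such a case in about 1 in 20 groups, so 1 among 56 is no more than chance gives. The DEX array of the same number was also the highest of its group, at 7.69.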

How the results depend on the processing

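Of the 28 Hox and cdx genes, 0 passed under any alternative run, in 516 combinations of gene and alternative, with a lowest adjusted p of 0.207. The sign of the change differed in 58 of these, and 10 genes kept their sign in all, including the 3 cdx genes (57 combinations). Leaving out a pair gave medians of 0.23 to 0.40 for cdx. The median of the numbers 9 to 13 turned to 0.02 without pair 1 and 0.007 without pair 3, and that of 5 to 8 to 0.008 and 0.05, so no direction is read from either. Over all probe sets, 2 were called without the block and 180 with the replicate block. Leaving out an array gave 0 to 3 calls without the block (0 without DEX 2, no_DEX 2 or no_DEX 3, and 1 without DEX 3 or no_DEX 1), and leaving out a pair gave 4 to 120 with it (34 without pair 1, 4 without 2 and 26 without 3). The replicate block changed no call of a Hox or cdx gene. Replicate number calls fell from 6723 to 3681 without pair 2 and 3726 without pair 3, and were at most 6567 with a pair left out. With array medians set to 0, 5 Hox genes were called by replicate number in place of 3, with hoxa3.S (0.0375) and hoxc6.S (0.0360) added, and with a pair left out 0 to 3 were called. Without pair 4 hoxc8.S was called (0.0444). Beyond the use of fewer arrays in some of these, the cause was not tested. The fits with the block and a second choice, 169 calls with medians set to 0 and 150 without dim probe sets, were chosen after seeing the data.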

Other observations

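The Hox and cdx genes had 16 further probe sets beside those counted, and 0 of them passed for dexamethasone with or without the block. Of these, 5 lay at or under the background limit, for hoxa11.S, hoxb5.S, hoxb7.L, hoxb9 and hoxd9. A further probe set is annotated to both hoxc8.S and xhoxc8 and was not counted. It read 8.54, 8.34, 8.81 and 9.06 on DEX 1 to 4 and 8.73, 8.26, 9.08 and 8.67 on no_DEX 1 to 4. It too was lower with dexamethasone in pairs 1 and 3 and higher in pairs 2 and 4, with a mean change of 0.001. Among further probe sets of genes counted with this order, that of hoxb6.S kept it. Those of hoxb7.L, hoxb9 and hoxd9 did not. In pair 2 the brighter hoxb9 set gave −0.18, and the hoxd9 set, at background, gave −0.08. Some sets of hoxb7.S and hoxc6.S showed the order where their counted sets did not.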
